A study of Mus musculus with 2 samples.

Results

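The 10 transcription regulators described here are factors and 1 cofactor that are known for their work in the absorptive cells of the intestine: *Hnf4a*, *Hnf4g*, *Ppara*, *Ppargc1a*, *Cdx1*, *Cdx2*, *Gata4*, *Klf4*, *Klf5* and *Maf*. They were taken by name, all 10 were found in both count tables, and they stand among 16665 genes listed in either table. The data are 2 single-cell RNA-seq libraries of mouse enteroids, which are crypt-villus-like structures grown from ileal crypts in a gel. The crypts came from 4-month-old mice of the C57Bl6/129sv background, and the enteroids were grown for 8 days. Enteroids of the library called *Taf4* IEC here were labelled as a knockout and received 1 µM 4-hydroxytamoxifen for 3 days, from day 5. According to the methods of the study they carried *Taf4* lox/lox and VilCreERT2, a tamoxifen-activated Cre driven in the gut epithelium by the villin promoter. *Taf4* encodes a subunit of TFIID, the general transcription factor that recognizes core promoters. The control was labelled as wild type with ethanol, whereas the methods give it as *Taf4* lox/lox with 4-hydroxytamoxifen, so that it is not settled whether both libraries share the floxed allele and the drug. Cells had been sorted for viability before capture.

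There was 1 library per genotype. Cells of a library are not replicates, so no difference between the libraries was tested, and every interval given here is a 95% interval of counting error only. The control held 2563 cells and 39947009 UMIs (unique molecular identifiers, each standing for 1 captured mRNA), and the *Taf4* IEC library held 1811 cells and 24990128 UMIs. Median depth was 16749 and 2254 UMIs per cell, and 17.3% and 49.1% of the cells had fewer than 2000 UMIs. The libraries shared 2 cell barcodes. *Taf4* itself was not lower in the library labelled *Taf4* IEC: it had 278 UMIs in the control and 236 in *Taf4* IEC, or 0.0696 and 0.0944 UMIs per 10000 (log2 ratio 0.44, interval 0.18 to 0.70). Counts from the 3′ end do not show whether the floxed part of the transcript was present, so this is no check of the deletion. The label of intestinal epithelium was borne out by its markers: both libraries had enterocyte, stem, Paneth/goblet and enteroendocrine markers, and of 12 markers of fibroblasts, muscle, endothelium and blood, 9 and 8 were at 0. Markers of secretory cells were more abundant in *Taf4* IEC, with a summed level of Paneth/goblet markers of 68.6 per 10000 in the control and 226 per 10000 in *Taf4* IEC. Enterocyte markers summed to 25.01 and 58.1 per 10000 and stem markers to 16.4 and 10.2 per 10000.

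In the intestine, HNF4α and HNF4γ are nuclear receptors that bind DNA as dimers and sustain the genes of the brush border and of fat handling. CDX1 and CDX2 are homeodomain factors, of which CDX2 sets the intestinal identity of the epithelium, and GATA4 takes part in the regional identity of the small bowel. PPARα is a receptor for fatty acids that turns on their oxidation, with PGC-1α, the product of *Ppargc1a*, as a coactivator that drives mitochondrial genes. KLF4 and KLF5 bind GC-rich sites and are known for opposite roles, KLF5 in dividing crypt cells and KLF4 in cells that have stopped dividing and in goblet cells. c-MAF, the product of *Maf*, is a basic leucine zipper factor with a role in enterocytes of the villus.

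The start regions of 3 members are shown because they belong to a receptor of enterocyte genes, the factor of intestinal identity and the member whose levels stood apart between all neighbouring cell types in both libraries, and because they lie wholly outside the annotated gene. They were read from RefSeq on GRCm38.p6, the same assembly as mm10, to which the reads had been aligned. Each ends 1 base before the annotated gene and is written 5′ to 3′ on the strand of its gene. Capitals in *Hnf4a* mark a match to AGATAA, the GATA motif. Capitals in *Cdx2* and *Klf4* mark matches to CCNCNCCC, a GC-rich motif of the kind that Klf factors bind, on either strand, and neighbouring matches run together.
Hnf4a, chr2:163506607-163506810, plus strand: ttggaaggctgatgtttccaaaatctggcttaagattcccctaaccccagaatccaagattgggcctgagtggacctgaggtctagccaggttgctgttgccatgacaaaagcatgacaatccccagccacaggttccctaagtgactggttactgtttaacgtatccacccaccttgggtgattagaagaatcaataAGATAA
Cdx2, chr5:147307250-147307499, minus strand: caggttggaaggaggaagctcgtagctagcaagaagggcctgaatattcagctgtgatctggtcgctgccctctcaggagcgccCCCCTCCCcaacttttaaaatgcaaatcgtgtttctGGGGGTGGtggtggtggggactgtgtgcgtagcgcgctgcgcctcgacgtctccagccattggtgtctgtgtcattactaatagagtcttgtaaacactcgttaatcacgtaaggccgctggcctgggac
Klf4, chr4:55532476-55532725, minus strand: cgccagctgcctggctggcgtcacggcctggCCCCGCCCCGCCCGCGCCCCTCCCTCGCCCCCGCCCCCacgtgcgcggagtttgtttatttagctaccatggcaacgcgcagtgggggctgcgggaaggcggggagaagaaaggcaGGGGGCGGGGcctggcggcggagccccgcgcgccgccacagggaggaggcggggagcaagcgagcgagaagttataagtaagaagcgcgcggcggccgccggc
The *Hnf4a* bases held 1 match to AGATAA and 0 to CCNCNCCC, those of *Cdx2* held 2 matches to CCNCNCCC, and those of *Klf4* held 9, many of them overlapping. Their GC content was 46.6%, 55.2% and 74.0%. The *Hnf4a* sequence was cut to 204 bases at the annotated gene. Its full window held a CCNCNCCC match beginning 44 bases before the window's end, in the part not shown. Over 32851 RefSeq start windows of 250 bases, AGATAA was present in 9.99% and CCNCNCCC in 45.9%, both strands searched. TATAAA (present in 12.4% of windows), TTTATNG (in 9.81%, overlapping the reverse complement of TATAAA) and CAAAGTCCA (in 0.384%), motifs of the TATA box, of Cdx factors and of HNF4, had 0 matches in the 3 sequences shown. A match is a string of letters and not a bound site.

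Cells were clustered in each library alone, without the 10 members among the clustering genes, so that no member shaped a cluster. A cluster was named from markers (for example *Lgr5* and *Olfm4* for stem-like cells, *Fabp1* and *Alpi* for enterocyte-like cells). This gave 1054 control and 434 *Taf4* IEC stem-like cells, 231 and 167 enterocyte-like cells, 186 and 125 Paneth/goblet-like cells and 261 and 199 enteroendocrine-like cells. The stem-like cells of the control fell into 6 clusters, most of them led by genes of S phase, of mitosis or by *Olfm4* and *Hes1*. Those of *Taf4* IEC fell into 3, a mitotic cluster of 215 cells, a *Ccnd1*, *Myc* and *Lgr5* cluster of 186 and an S-phase cluster of 33. Levels below are UMIs per 10000 UMIs of all genes, summed over the cells named, so that deeper cells weigh more. Enterocyte-like cells were 9.01% of control and 9.22% of *Taf4* IEC cells. They held 4439764 of the 39947009 UMIs of the control and 4446602 of the 24990128 UMIs of *Taf4* IEC.

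Over all cells, *Maf* was the member that differed most between the libraries, at 4.01 times the control level in *Taf4* IEC. The other 9 lay within 1.70-fold of the control, and 8 of the 10 were above the median of all genes. At least 1.5-fold higher in *Taf4* IEC were 3 members (*Hnf4g*, *Ppara* and *Maf*), beside 16.0% of the 10002 genes that had 200 UMIs or more in the libraries together. At least 1.5-fold lower were 0 members, beside 7.47% of these genes. The median log2 ratio was 0.49 for the members and 0.16 for all genes. Leaving mitochondrial, ribosomal protein, *Gm42418* and *AY036118* genes out of the totals moved the median of all genes to −0.03. *Gata4* lay just inside the threshold at 1.49-fold and *Hnf4g* just outside it at 1.55-fold.

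**Figure D1:**
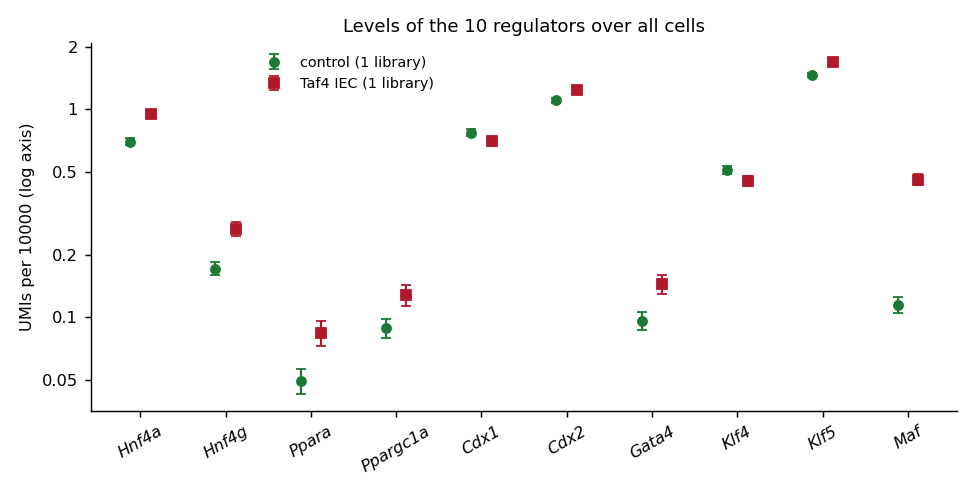
Level of each regulator in UMIs per 10000 (log axis) over all cells of the control and the *Taf4* IEC library, with exact Poisson 95% intervals of counting error. *Maf* stood apart, at 0.114 in the control and 0.459 in *Taf4* IEC, while the other 9 regulators lay closer together.

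Both HNF4 receptors were above the control level. *Hnf4a* (chromosome 2, 163506811 to 163572907) had 2792 UMIs in the control and 2379 in *Taf4* IEC, a level of 0.699 and 0.952 (log2 ratio 0.45, 0.37 to 0.53). *Hnf4g* (chromosome 3, 3508030 to 3659800) had 684 and 664 UMIs, a level of 0.171 and 0.266 (log2 ratio 0.63, 0.48 to 0.79). As each UMI is 1 captured molecule, the receptors can be set against each other by captured number. Whether transcripts of both are captured equally well was not tested. *Hnf4g* made up 19.7% of their joint UMIs in the control (18.4% to 21.0%, exact Clopper-Pearson interval) and 21.8% in *Taf4* IEC (20.4% to 23.3%), intervals that overlap. The counts do not separate *Hnf4a* transcripts that begin at its different starts.

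Cell type moved *Hnf4g* far more than *Hnf4a*. In the control, *Hnf4g* was 0.123 in stem-like and 0.459 in enterocyte-like cells, 3.73-fold higher, and in *Taf4* IEC it was 0.124 and 0.596, 4.79-fold higher. *Hnf4a* differed little along the same axis, at 0.715 and 0.887 in the control (log2 ratio of the cell types 0.31) and 0.927 and 1.09 in *Taf4* IEC (0.23). *Hnf4g* accordingly took 34.1% of the joint UMIs in control enterocyte-like cells (30.3% to 38.1%) and 35.4% in those of *Taf4* IEC (32.0% to 39.0%), against 14.7% and 11.8% in stem-like cells. Within a cell type, *Hnf4a* was higher in *Taf4* IEC by a log2 ratio of 0.37 (0.25 to 0.49) in stem-like cells, 0.29 (0.10 to 0.49) in enterocyte-like cells and 0.31 in Paneth/goblet-like cells. *Hnf4g* was close between libraries in stem-like cells (log2 ratio 0.01, −0.31 to 0.33) and higher in enterocyte-like cells (0.38, 0.11 to 0.65). In Paneth/goblet-like cells it was 0.172 in the control and 0.109 in *Taf4* IEC, from 54 and 32 UMIs (log2 ratio −0.66, −1.34 to 0.00). Both genes had their widest gap in the unnamed cells (739 in the control and 871 in *Taf4* IEC), which are not 1 cell type. There the log2 ratio was 0.93 (0.73 to 1.13) for *Hnf4a* and 1.17 (0.84 to 1.51) for *Hnf4g*.

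*Ppara* (chromosome 15, 85734910 to 85806851) had the steepest contrast between enterocyte-like and stem-like cells of all members in *Taf4* IEC. It had 196 UMIs in the control and 209 in *Taf4* IEC over all cells, a level of 0.0491 and 0.0836 (log2 ratio 0.77, 0.48 to 1.06). This direction turned when each cell was thinned to 2000 UMIs (log2 ratio −0.38), and the libraries were level when each cell had equal weight (0.01). In enterocyte-like cells its level was 0.158 in the control (70 UMIs) and 0.288 in *Taf4* IEC (128 UMIs), a log2 ratio of 0.87 (0.44 to 1.31). In stem-like cells it was 0.0299 (66 UMIs) and 0.0214 (20 UMIs), with an interval across 0 (−1.28 to 0.26). Enterocyte-like cells thus exceeded stem-like cells 5.27-fold in the control and 13.4-fold in *Taf4* IEC. Paneth/goblet-like cells had 9 and 3 UMIs of it, and enteroendocrine-like cells 2 and 5, too few to place these cells.

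*Ppargc1a* (chromosome 5, 51454249 to 52115853) shared the preference for enterocyte-like cells but not the difference between libraries there. It had 352 UMIs in the control and 318 in *Taf4* IEC, a level of 0.0881 and 0.127 (log2 ratio 0.53, 0.31 to 0.75). With equal weight for each cell the log2 ratio was 0.00. In enterocyte-like cells it was 0.266 and 0.256, a log2 ratio of −0.05 (−0.44 to 0.33). In stem-like cells it was 0.0403 (89 UMIs) and 0.0654 (61 UMIs), a log2 ratio of 0.70 (0.20 to 1.18). The contrast between these cell types was therefore 6.59-fold in the control, the steepest of the members in that library, and 3.92-fold in *Taf4* IEC.

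The Cdx pair ran the other way, with less in enterocyte-like than in stem-like cells of both libraries. *Cdx1* (chromosome 18, 61018862 to 61036199) was 0.861 in stem-like and 0.277 in enterocyte-like cells of the control (log2 ratio −1.64), and 0.854 and 0.335 in *Taf4* IEC (−1.35). *Cdx2* (chromosome 5, 147300900 to 147307249) was 1.24 and 0.664 in the control (−0.91) and 1.42 and 0.884 in *Taf4* IEC (−0.69). *Cdx1* took 40.9% of the joint Cdx UMIs in control stem-like cells and 29.4% in enterocyte-like cells, and 37.5% and 27.5% in *Taf4* IEC. Over all cells *Cdx1* had 3091 and 1752 UMIs, a level of 0.774 and 0.701 (log2 ratio −0.14, −0.23 to −0.06). *Cdx2* had 4419 and 3089 UMIs, a level of 1.11 and 1.24 (0.16, 0.09 to 0.23), but this turned to −0.02 without mitochondrial, ribosomal protein, *Gm42418* and *AY036118* genes in the totals. In enterocyte-like cells *Cdx2* was higher in *Taf4* IEC by 0.41 (0.19 to 0.63), and in enteroendocrine-like cells by 0.47, at 1.03 and 1.42.

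*Gata4* (chromosome 14, 63198914 to 63271712) was higher in enterocyte-like than in stem-like cells of both libraries, 1.48-fold in the control (1.09 to 1.98) and 1.38-fold in *Taf4* IEC (1.03 to 1.84). It had 384 UMIs in the control and 359 in *Taf4* IEC, a level of 0.0961 and 0.144 (log2 ratio 0.58, 0.37 to 0.79). Levels in the 4 named cell types ran from 0.0582 to 0.135 in the control and from 0.0853 to 0.182 in *Taf4* IEC, with no pair of neighbours in this order apart beyond counting error. The widest gap between libraries lay in enteroendocrine-like cells, where 15 and 40 UMIs gave 0.0582 and 0.160 (log2 ratio 1.46, 0.57 to 2.42).

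*Klf4* (chromosome 4, 55527137 to 55532475) was the most cell-type-bound of the Klf pair and was highest in Paneth/goblet-like cells of both libraries, at 1.76 in the control and 1.73 in *Taf4* IEC. The libraries were level there (log2 ratio −0.03, −0.20 to 0.15). They were level also in enterocyte-like cells, at 0.426 and 0.416 (−0.03, −0.33 to 0.27). In stem-like cells *Klf4* was 0.323 in the control (713 UMIs) and 0.183 in *Taf4* IEC (171 UMIs), a log2 ratio of −0.82 (−1.07 to −0.58). In enteroendocrine-like cells it was 0.551 (142 UMIs) and 0.296 (74 UMIs), a log2 ratio of −0.90 (−1.32 to −0.48). The stem-like difference was 0.05 when both libraries were clustered together, a setting that left 59 stem-like cells in *Taf4* IEC beside 1127 in the control. Over all cells, where Paneth/goblet-like cells weigh heavily, *Klf4* had 2049 and 1130 UMIs, a level of 0.513 and 0.452 (−0.18, −0.29 to −0.08). Without these cells the log2 ratio was −0.52, an alternative chosen after the data had been seen. In the control the order was Paneth/goblet-like, enteroendocrine-like, enterocyte-like and stem-like, each apart from the next, and in *Taf4* IEC enterocyte-like cells came before enteroendocrine-like cells, again each apart.

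*Klf5* (chromosome 14, 99298691 to 99313412) ran from 1.142 to 1.74 over the 4 named cell types of the control and from 1.17 to 1.95 over those of *Taf4* IEC, lowest in enteroendocrine-like cells of both. It had 5839 UMIs in the control and 4218 in *Taf4* IEC, a level of 1.46 and 1.69 (log2 ratio 0.21, 0.15 to 0.26), which turned to −0.14 when each cell was thinned to 2000 UMIs. Enterocyte-like cells were at 1.74 in both libraries. Stem-like cells were at 1.34 and 1.71 (0.35, 0.27 to 0.44), so that the lead of enterocyte-like over stem-like cells in the control (log2 ratio 0.38) was 0.02 in *Taf4* IEC.

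*Maf* (chromosome 8, 115703253 to 115706894) had 457 UMIs in the control and 1146 in *Taf4* IEC, a level of 0.114 and 0.459 (log2 ratio 2.00, 1.85 to 2.16), the 88th highest ratio of the 10002 genes. Stem-like cells showed the widest gap, at 0.0426 in the control (94 UMIs) and 0.289 in *Taf4* IEC (270 UMIs), 6.79-fold (log2 ratio 2.76, 2.42 to 3.12). Paneth/goblet-like cells held the highest level in both libraries, 0.402 (126 UMIs) and 1.64 (481 UMIs), a log2 ratio of 2.03 (1.74 to 2.32). Enterocyte-like cells were at 0.164 (73 UMIs) and 0.288 (128 UMIs), a log2 ratio of 0.81 (0.38 to 1.24). Enteroendocrine-like cells were level, at 0.148 and 0.140 (−0.08, −0.78 to 0.62). The order of cell types therefore differed between the libraries: in the control stem-like cells were lowest and apart from the other 3, whereas in *Taf4* IEC stem-like and enterocyte-like cells did not differ beyond counting error.

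**Figure D2:**
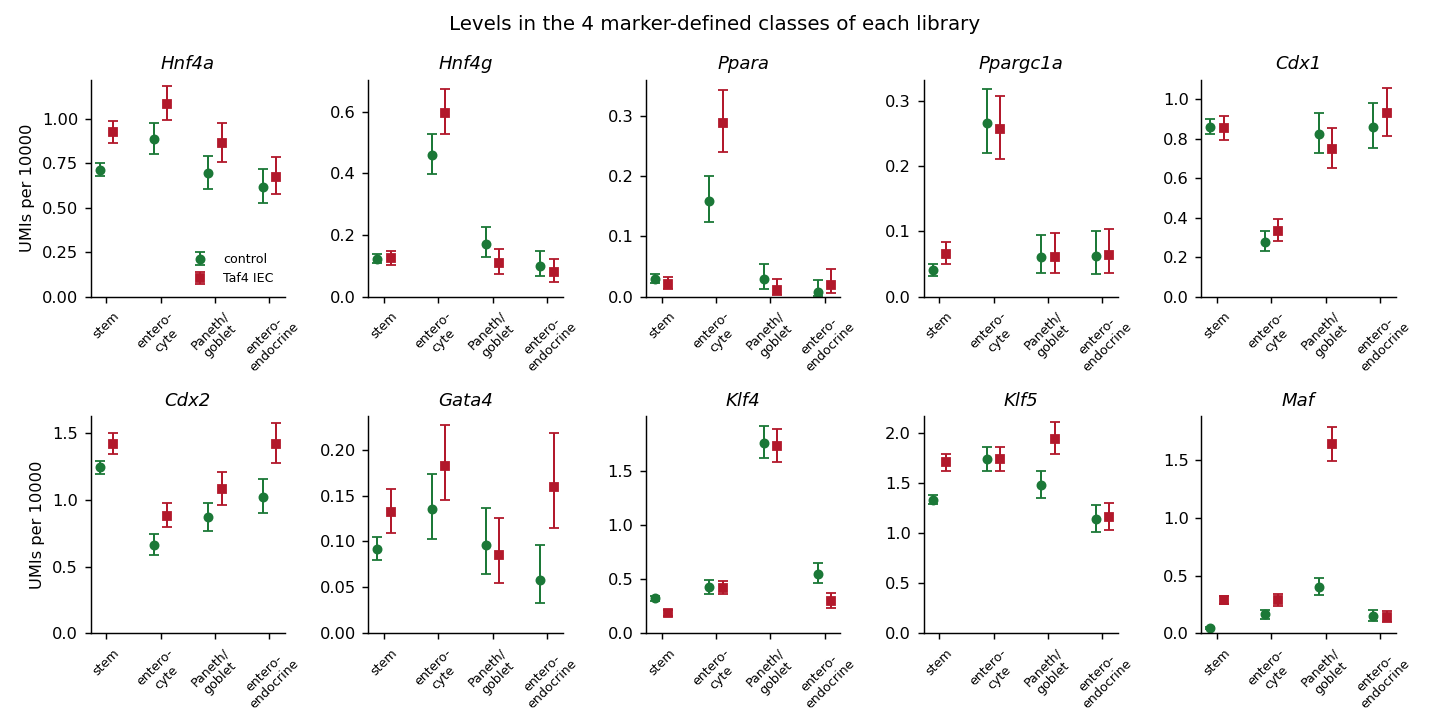
Level of each regulator in UMIs per 10000 in the 4 named cell types of the control and the *Taf4* IEC library, 1 panel per gene with its own scale from 0, with exact Poisson 95% intervals. *Hnf4g*, *Ppara* and *Ppargc1a* peaked in enterocyte-like cells, *Cdx1* and *Cdx2* were lowest there, and *Klf4* and *Maf* peaked in Paneth/goblet-like cells, with *Maf* at 0.402 in the control and 1.64 in *Taf4* IEC.

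The stem-like gap in the summed *Maf* level was present in clusters of the same kind. The share of mitotic cells with a *Maf* UMI did not show it. In S-phase clusters that shared *Atad2*, *Lig1* and *Pclaf* among their leading genes (244 control and 33 *Taf4* IEC cells), *Maf* was 0.0200 and 0.135 (log2 ratio 2.75, 1.55 to 4.01). These levels came from 11 and 16 UMIs. In mitotic clusters that shared *Ccnb1*, *Cenpe* and *Hmmr* (196 and 215 cells, median depth 26968.5 and 2378 UMIs), *Maf* was 0.0516 and 0.242 (2.23, 1.499 to 2.99), and against a further mitotic control cluster of 137 cells, at 0.0601, the log2 ratio was 2.01 (1.12 to 2.99). The first of these pairs had 26 *Maf* UMIs in 18 control cells (9.18%) and 44 in 16 *Taf4* IEC cells (7.44%). Among cells thinned to 5000 UMIs, shallower ones left out, 8 of 194 control cells had a *Maf* UMI (4.12%, 1.80% to 7.96%). In *Taf4* IEC 1 of 60 such cells had one (1.67%, 0.04% to 8.94%), so that the intervals overlap. In clusters that shared *Olfm4*, *Hes1* and *Myc* (163 and 186 cells), the *Maf* level was 0.0525 and 0.332 (2.66, 1.90 to 3.52). All 6 control stem-like clusters lay between 0.0200 and 0.0601 and all 3 of *Taf4* IEC between 0.135 and 0.332, without overlap, though clusters of a library share that library. *Klf4* was not higher with *Maf* in these clusters: its log2 ratio was −1.54 in the S-phase clusters, −0.27 (−0.72 to 0.15) in the mitotic clusters and −0.96 in the *Olfm4* clusters.

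More stem-like cells of *Taf4* IEC had a *Maf* UMI, most of them in its *Ccnd1*, *Myc* and *Lgr5* cluster. The share was 6.93% in the control and 25.6% in *Taf4* IEC, and 2.71% (1.81% to 3.89%) and 10.6% (7.23% to 14.9%) when each cell was thinned to 5000 UMIs and shallower cells were left out. This left out 21 control and 161 *Taf4* IEC cells, 155 of the latter from the mitotic cluster. Of the 29 thinned *Taf4* IEC cells with a *Maf* UMI, 27 were in the *Ccnd1*, *Myc* and *Lgr5* cluster. Enteroendocrine-like cells, at 3.63% and 7.20% after thinning, gave the comparison with a class in which the *Maf* levels were close. Median depths were 21144.5 and 25698.5 UMIs in stem-like cells (2378 in the mitotic cluster of *Taf4* IEC) and 10038 and 12727 in enteroendocrine-like cells. Paneth/goblet markers were also higher in the stem-like cells of *Taf4* IEC, at a summed level of 10.98 in the control and 29.5 in *Taf4* IEC, and in the Paneth/goblet-like cells, at 687 and 1576. Per 1000 UMIs of these markers, stem-like cells had 3.88 *Maf* UMIs in the control and 9.82 in *Taf4* IEC, and Paneth/goblet-like cells had 0.585 and 1.04. The other classes did not show this: enterocyte-like cells had 13.1 and 13.9, enteroendocrine-like cells 3.79 and 0.859, and unnamed cells 11.7 and 10.1. Without Paneth/goblet-like cells the log2 ratio of *Maf* over all cells was 1.75. Whether RNA freed from Paneth/goblet-like cells added to the stem-like *Maf* level was not tested.

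**Figure D3:**
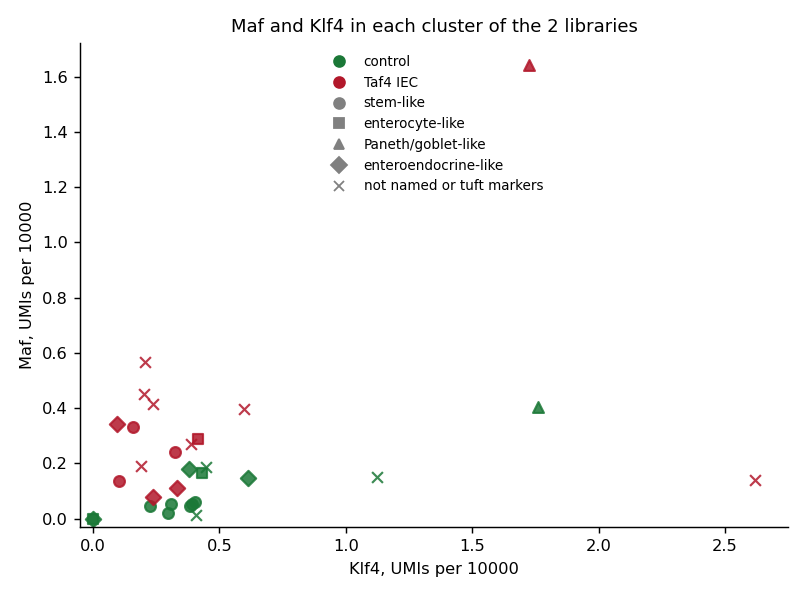
*Maf* level against *Klf4* level, both in UMIs per 10000, in the 30 clusters of the control and the *Taf4* IEC library (colour: library, shape: cell type). The 6 control stem-like clusters lay at or below 0.0601 for *Maf*, and the 3 stem-like clusters of *Taf4* IEC at or above 0.135.

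Within each of the 4 named cell types, no more than 3 of the members passed 1.5-fold between the libraries. In the unnamed cells *Hnf4a*, *Hnf4g*, *Gata4* and *Maf* were at least 1.5-fold higher in *Taf4* IEC and *Klf4* was lower. No share of all genes past 1.5-fold was computed for unnamed or enteroendocrine-like cells, so their counts of members cannot be set against it. The median log2 ratio in unnamed cells was 0.30 for the members and 0.11 for 8801 genes. In enteroendocrine-like cells these medians were 0.08 and 0.27 (8039 genes). In stem-like cells 2 members were at least 1.5-fold higher in *Taf4* IEC (*Ppargc1a* and *Maf*), beside 16.9% of the 10562 genes with at least 50 UMIs in these cells, and 1 was lower (*Klf4*), beside 8.53%. In enterocyte-like cells 2 were higher (*Ppara* and *Maf*), beside 9.70% of 7435 genes, and 0 were lower, beside 7.75%. The median log2 ratio of the members was 0.27 in stem-like cells and 0.33 in enterocyte-like cells, beside 0.19 and 0.02 for all genes. In Paneth/goblet-like cells 1 member was higher (*Maf*), beside 11.9% of 7359 genes, and 2 were lower, beside 8.00%. These 2 were *Hnf4g* and *Ppara*, the latter from 12 UMIs in all, and 8 of the members had the 50 UMIs required of the other genes.

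**Figure D4:**
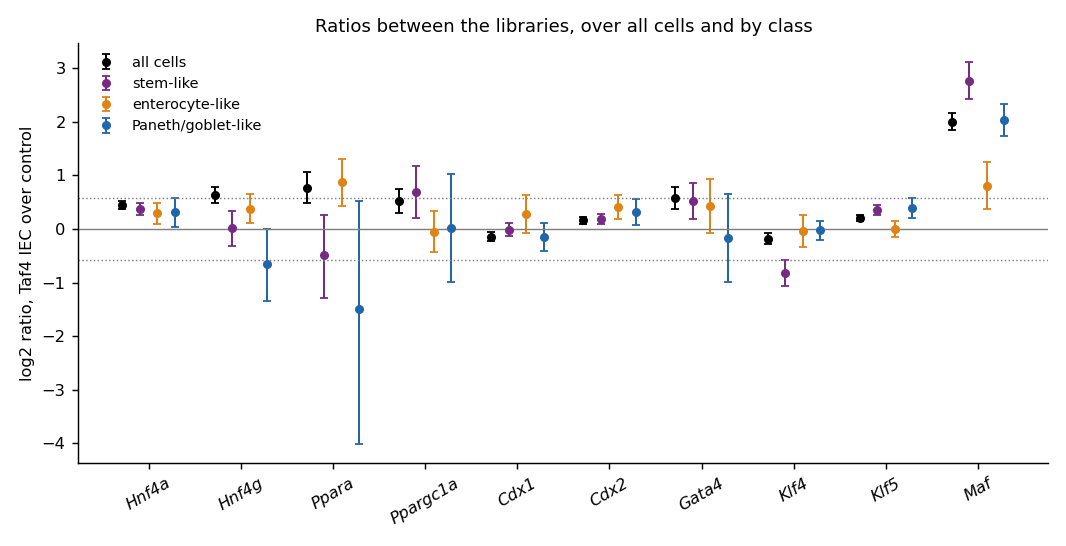
Log2 ratio of *Taf4* IEC over control for each regulator over all cells and in stem-like, enterocyte-like and Paneth/goblet-like cells, with exact conditional binomial 95% intervals and dotted lines at 1.5-fold. *Maf* lay past the upper line in all 4 sets of cells, from 0.81 to 2.76, and *Klf4* past the lower line in stem-like cells.

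Set against stem-like cells, enterocyte-like cells were richer in 4 members and poorer in 2 in each library. In the control the 4 were *Hnf4g*, *Ppara*, *Ppargc1a* and *Maf*, beside 20.4% of 10354 genes that were at least 1.5-fold higher in enterocyte-like cells. In *Taf4* IEC they were *Hnf4g*, *Ppara*, *Ppargc1a* and *Klf4*, beside 16.9% of 9502 genes. *Cdx1* and *Cdx2* were the 2 that were lower in both libraries, beside 44.7% and 48.7% of genes. The median log2 ratio of the members was 0.48 in the control and 0.35 in *Taf4* IEC, and that of all genes −0.43 and −0.55. The change of place between *Maf* and *Klf4* came with a *Maf* log2 ratio of the cell types of 1.95 in the control and −0.01 in *Taf4* IEC, and a *Klf4* ratio of 0.40 and 1.18.

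Similar gradients were seen for several members without clusters, though the same enterocyte markers that named clusters set the order. Cells with at least 2000 UMIs were ordered by the summed share of 12 enterocyte markers and divided into 5 ranges of equal cell number in each library. From the lowest to the highest range, *Hnf4g* went from 0.133 to 0.350 in the control (2.64-fold) and from 0.103 to 0.584 in *Taf4* IEC (5.69-fold). *Ppara* went from 0.0278 to 0.113 (4.06-fold) and from 0.0123 to 0.230 (18.6-fold, 8.35 to 51.7). *Ppargc1a* went from 0.0490 to 0.214 (4.37-fold) and from 0.0718 to 0.260 (3.63-fold). These 3 were higher at each of the 4 steps in *Taf4* IEC and at 3 of 4 in the control. *Cdx1* was lower at each of the 4 steps in both libraries, from 0.867 to 0.469 and from 0.849 to 0.454. *Hnf4a* moved little, from 0.668 to 0.824 and from 0.880 to 1.05, and *Klf5* from 1.46 to 1.64 and from 1.57 to 1.73. *Cdx2* went from 1.201 to 0.762 and from 1.25 to 1.02, and *Gata4* from 0.0742 to 0.119 and from 0.127 to 0.171. In *Taf4* IEC *Cdx2* first rose, to 1.37 in range 3, and the interval of the *Gata4* ends crossed 0 (log2 ratio 0.43, −0.04 to 0.91).

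*Maf* and *Klf4* did not follow the enterocyte markers in this way. *Maf* was 0.143, 0.111, 0.0677, 0.0945 and 0.174 over the 5 ranges of the control, lowest in the middle. In *Taf4* IEC it was 0.304, 0.522, 0.589, 0.706 and 0.283, highest in the range below the top. The Paneth/goblet-like cells in these ranges numbered 77, 43, 32, 24 and 6 in the control and 35, 26, 22, 19 and 1 in *Taf4* IEC. Without them *Maf* was 0.193, 0.368, 0.348, 0.323 and 0.281 in *Taf4* IEC, above the control values of 0.108, 0.0675, 0.0466, 0.0769 and 0.168 in every range. *Klf4* went from 0.717 in the lowest to 0.495 in the highest range of the control and from 0.613 to 0.334 in *Taf4* IEC. Without Paneth/goblet-like cells these ends were close, at 0.476 and 0.475 in the control and 0.323 and 0.334 in *Taf4* IEC.

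**Figure D5:**
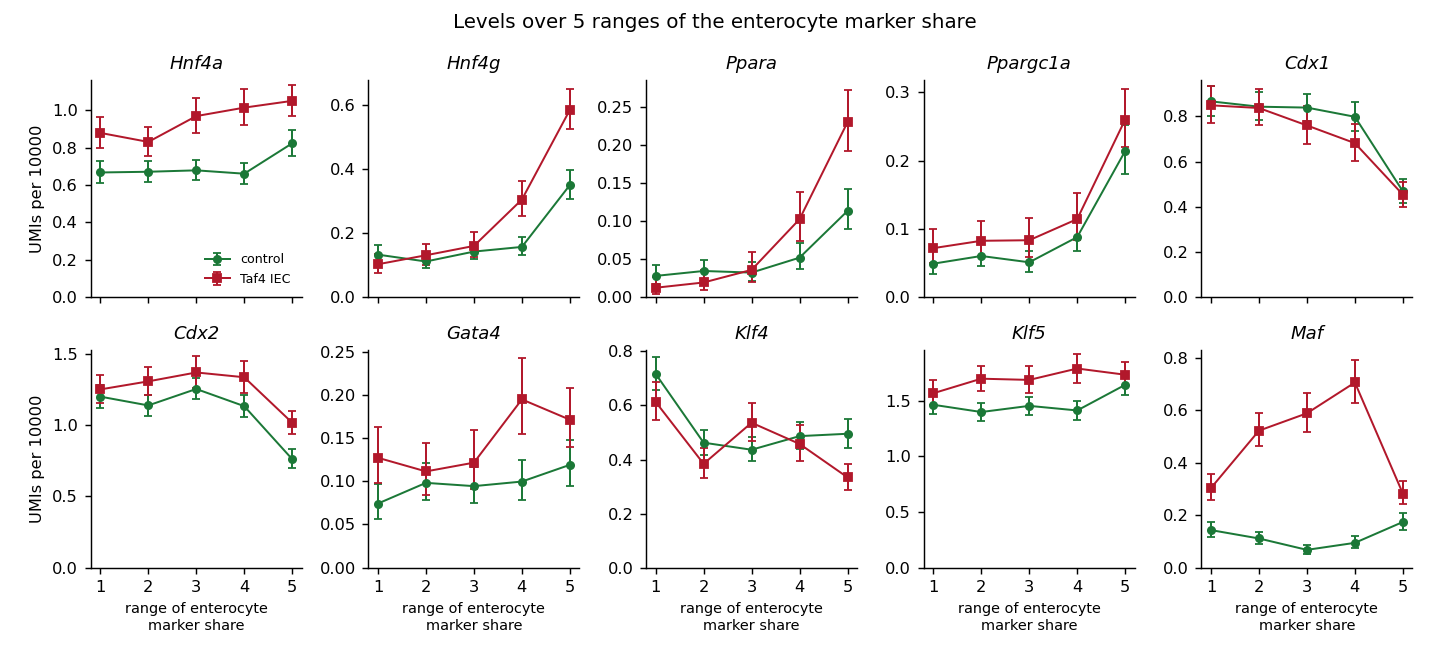
Level of each regulator in UMIs per 10000 over 5 ranges of equal cell number, ordered by the summed share of enterocyte markers from lowest to highest, in cells with at least 2000 UMIs of each library, with exact Poisson 95% intervals. *Hnf4g*, *Ppara* and *Ppargc1a* were higher and *Cdx1* lower with more enterocyte marker in both libraries, while *Maf* in *Taf4* IEC peaked at 0.706 in the range below the top.

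Over the 30 clusters of both libraries, which share library and depth within each library, the genes with the pattern most like a member were named by Pearson's r of log2(level + 0.05) among 7917 genes. For *Hnf4g* they were *Cobl* (r = 0.85), *Gramd3* (0.81) and *Acadm* (0.81), the last encoding an enzyme of fatty acid oxidation. For *Hnf4a* the nearest was *Ercc3* (0.79), followed by *Slc25a37* and *St14*, and for *Ppara* it was *Slc22a4* (0.82), a carnitine and ergothioneine transporter, followed by *Muc3* and *Ldha*. *Ppargc1a* was most like *Clic5* (0.83), *Adipor2* and *Gstm6*. *Cdx1* was most like *Tmem38b* (0.84), *Mex3d* and *Gm26735*, and *Cdx2* most like *Tspan12* (0.82), *Atp1b3* and *Ube2e1*. *Gata4* was most like *Mier2* (0.86), *Brap* and *Arfgap1*, and *Klf5* most like *Pld1* (0.89), *Egln3* and *Junb*. *Klf4* had the loosest match, with *Kit* (0.70), *Galnt7* and *Cracr2a*, and *Maf* was most like *Slc30a4* (0.79), a zinc transporter, *Ctsd*, the lysosomal protease cathepsin D, and *Pdcd6ip*. Among the members themselves the closest pairs were *Hnf4g* with *Ppara* (0.77), *Klf5* with *Maf* (0.58) and *Ppara* with *Ppargc1a* (0.58).

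Among the genes around the members, the targets of HNF4 and CDX2 passed 1.5-fold most often. Of 17 genes known as targets of HNF4 and CDX2, 13 were at least 1.5-fold higher in *Taf4* IEC over all cells and 1 was lower, with a median log2 ratio of 1.03, beside 16.0% and 7.47% of all genes and their median of 0.16. *Anpep*, aminopeptidase N of the brush border, had a log2 ratio of 3.64 and *Alpi*, intestinal alkaline phosphatase, of 2.46, whereas *Mep1a* was at −0.22 and *Apoa4* at −0.70. Several of these genes, *Anpep*, *Alpi* and *Apoa4* included, are among the 12 enterocyte markers that named the clusters. The share of all genes is therefore no independent background for them, in enterocyte-like cells or over all cells. Enterocyte-like cells held 4439764 of the 39947009 control UMIs and 4446602 of the 24990128 UMIs of *Taf4* IEC. Over all cells the counts of targets therefore cannot be told apart from cell composition. In enterocyte-like cells 9 of 17 were higher and 2 lower, beside 9.70% and 7.75% of all genes. In stem-like cells 6 of 15 were higher and 2 lower, beside 16.9% and 8.53%. Of 15 targets of PPARα, genes of fatty acid oxidation and transport, 3 were higher and 2 lower over all cells, with a median of 0.28, shares near the 16.0% and 7.47% of all genes. The 3 higher include an enterocyte marker. *Ehhadh*, a peroxisomal enzyme, was highest (1.12), and *Acot1* (−0.83) and *Angptl4* (−1.26) were lowest. In enterocyte-like cells, where *Ppara* itself was higher, 1 of these 15 was higher and 3 were lower, beside 9.70% and 7.75% of all genes.

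Relatives of the members and other factors are read against the same shares of all genes, 16.0% higher and 7.47% lower. Of 24 other nuclear receptors and coregulators 3 were higher and 0 lower over all cells (median 0.13), led by *Nr1i3* (1.49), the xenobiotic receptor CAR, and *Ppard* (1.15), another receptor for fatty acids, with *Nr2f2* (−0.43) and *Esrrg* (−0.52) at the other end. Of 18 other intestinal transcription factors 0 were higher and 2 lower (median −0.11): *Elf3* (−0.62), an epithelial Ets factor, and *Gata5* (−0.76), a relative of *Gata4*. *Creb3l3* (0.28) was the highest of this list. Of 8 other Klf genes 0 passed 1.5-fold in either direction (median 0.15), from *Klf3* and *Klf7* (both 0.20) to *Klf13* (0.06) and *Klf11* (−0.36). Of 3 other Maf genes, which encode the small Maf proteins, *Mafk* was higher (0.89), and *Mafg* (0.20) and *Maff* (0.19) were not past the threshold.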

How the data were processed

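Single-cell RNA-seq of enteroids was measured in 1 control and 1 *Taf4* IEC library. The deposited values are whole-number UMI counts per gene and cell, not normalized. The authors made them with Cell Ranger 3.1 against mm10 (with bcl2fastq 2.17.1.14 and Seurat 3.1.4 in the submitters' processing notes), and every cell met their filter of 200 to 6000 genes and under 15% mitochondrial counts. Clustering used R 4.3.3 and Seurat 5.3.0 with 20 principal components and resolution 0.9 on 2000 variable genes less the members, after regression on depth and on the mitochondrial share. The study does not name the variables it regressed out. A cluster was named by the class with most markers at 1.5 times the mean level of the libraries or above and with at least 10 UMIs, if there were at least 3, unless its 10 leading genes or its depth spoke against it. Doublets were predicted by Scrublet in scanpy 1.11.5 (10 control cells, 0.390%, and 0 *Taf4* IEC cells, so that this caller cannot be relied on here) and kept. Levels, exact Poisson intervals, exact conditional binomial intervals of ratios and Clopper-Pearson intervals were computed in Python 3.11.15 with numpy 2.4.6, scipy 1.17.1 and pandas 2.3.3, and plots with matplotlib 3.10.9. The steps were tested on simulated data.

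The members and lists were chosen with earlier results of these data known. Of each other list, the text names the 2 genes with the highest and the 2 with the lowest log2 ratio over all cells among those with at least 200 UMIs over both libraries, and for each member the 3 genes most like it over clusters among those with at least 500 UMIs. Of the genes this rule names, 2 are not reported here. With 1 library per genotype there was no test. Alternatives covered the totals, thinning, cell weights, clustering, naming and thresholds, and 1 of them, leaving out Paneth/goblet-like cells, was added after the data had been seen.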

Additional observations from a re-analysis of the deposited data

How the results depend on the processing

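*Maf* was at least 1.5-fold higher in *Taf4* IEC under every alternative tried, with log2 ratios of 1.72 to 2.01 over all cells, 0.66 to 1.09 in enterocyte-like cells and 1.88 to 2.98 in stem-like cells. The number of members higher over all cells, 3 in the setting reported, was 1 with cells thinned to 2000 UMIs, 1 with equal weight for each cell, 1 at 2-fold and 5 without Paneth/goblet-like cells, and the number lower, 0, was 1 after thinning. Over all cells *Ppara* reversed to −0.38 after thinning. In enterocyte-like cells the number higher, 2, was 4 with 10 principal components, 4 with both libraries clustered together and 0 at 2-fold. In stem-like cells the number higher, 2, was 4 under the stricter naming of clusters (markers at 2 times the mean level), and 1 with markers taken out of the variable genes, with no variable regressed out, with both libraries clustered together, without mitochondrial and ribosomal protein genes in the totals, after centring on the median of all genes and at 2-fold. The number lower there, 1, was 3 under that naming, 0 at 2-fold, and 2 with members kept among the variable genes, with markers taken out, at resolution 1.4, with 10 or 30 principal components, with markers set against the other cells of the library at 1.5 times, without mitochondrial and ribosomal protein genes and after centring. The stricter naming left 33 stem-like cells in *Taf4* IEC, of the 434 in the setting reported, beside 721 in the control. With 10 principal components these numbers were 107 and 1179. *Klf4* in stem-like cells reversed to 0.052 with both libraries clustered together. Over the ranges of enterocyte markers the number of members lower, 2 in each library, was 0 at 2-fold in each. The 2 were *Cdx1* and *Cdx2* in the control and *Cdx1* and *Klf4* in *Taf4* IEC, with no share of all genes beside them. With no filter on low counts, 27.1% of all genes were higher and 15.6% lower over all cells. The cause of these moves was not tested. No paired analysis was possible because each genotype had 1 library and no replicate number, and no library could be left out. Depth limits the values of *Hnf4g*, *Ppara*, *Ppargc1a*, *Gata4*, *Klf4* and *Maf*, each with fewer than 100 UMIs in at least 1 of the 4 named cell types. In the tuft-like cells of *Taf4* IEC every member had fewer than 100.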

Other observations

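Some clusters carried no name from the markers yet had distinct levels of the regulators. A control cluster of 309 cells and a *Taf4* IEC cluster of 144 cells, both led by *Tmem237* and *2610528A11Rik*, had few markers of any class. *Hnf4g* was 0.189 in the first and 0.482 in the second, *Ppara* 0.0825 and 0.113, *Ppargc1a* 0.173 and 0.228, *Maf* 0.188 and 0.414, and *Klf4* 0.447 and 0.237 UMIs per 10000. These levels of *Ppara* and *Ppargc1a* lay between those of the stem-like and the enterocyte-like cells of the same library. The 2 clusters share 2 leading genes only and were not compared as a cell type.

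The 15 tuft-like cells of *Taf4* IEC, led by *Lrmp*, *Rgs13*, *Trpm5* and *Dclk1*, had a *Klf4* level of 2.62 (1.98 to 3.40, 56 UMIs) and a *Cdx1* level of 2.43 (1.82 to 3.19, 52 UMIs), above the 1.73 and 0.747 of the Paneth/goblet-like cells of that library. *Klf4* UMIs were seen in 7 of the 15 cells. A control cluster of 92 cells led by *Rgs13*, *Sox4* and *Insm1* had 3 tuft markers and a *Klf4* level of 1.12. Its leading genes include markers of other lineages, so that it was not set against the tuft-like cells. The *Tac1* and *Tph1* clusters of enteroendocrine-like cells, 50 in the control and 29 in *Taf4* IEC, had *Maf* levels of 0.178 and 0.342 from 8 and 11 UMIs, with an interval of the log2 ratio across 0 (−0.51 to 2.46).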
